A study of Mus musculus with 86 samples.

Results

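The binding maps of the pluripotency factor SOX2 and of the architectural protein CTCF were compared in asynchronously growing mouse embryonic stem cells, using 2 peak lists for each factor, 4 of the 8 lists analysed from a series of 86 libraries. Overlapping peaks from both lists of a factor were merged, and a merged region was kept when each list had a peak in it. This left 51672 SOX2 regions and 57992 CTCF regions, called regions throughout, while peak refers to an entry of a single list. The cells were of strain 129S5/SvEvBrd, were left untreated and grew on gelatin in medium with 15% serum and 10 ng/ml of mouse leukemia inhibitory factor (LIF), which keeps stem cells self-renewing. SOX2 was precipitated with the R&D Systems antibody AF2018 and CTCF with the Abcam antibody ab70303. No separate cultures are named behind the replicates, so the spread between lists may be technical, and peak lists hold no expression values against which the labelled cell type could be checked.

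SOX2 is an HMG-box transcription factor that bends DNA at a short A/T-rich core and often binds beside OCT4 at enhancers of the pluripotency network. CTCF is a zinc finger protein with a long G/C-rich recognition sequence. It stops cohesin as it extrudes chromatin loops and so marks loop anchors, domain borders and insulators, and it also binds many promoters.

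The 7 promoters printed here show the sequence under strong regions at gene starts: 3 under a SOX2 region without CTCF, 3 under a CTCF region without SOX2 and 1 under both. They were the strongest regions by deposited fold that held a match to a motif and, for the first 6, had their summit in the promoter window, so the presence of a match is part of the choice. Each sequence is the RefSeq promoter window on GRCm38.p6, from 250 bases before to 50 bases after the start of transcription, read along the gene's strand. Capitals mark every match on either strand to CATTGT or CATTGTNAT, a SOX core alone and beside the start of an octamer, in the SOX2 promoters, and to CNAGNNGGC or AGNNGGCGC, 2 parts of the CTCF core, in the CTCF promoters. Each CATTGTNAT match holds a CATTGT match, and matches of both CTCF motifs can overlap. In the shared promoter of Prickle1 all 4 motifs were searched.
1700019D03Rik: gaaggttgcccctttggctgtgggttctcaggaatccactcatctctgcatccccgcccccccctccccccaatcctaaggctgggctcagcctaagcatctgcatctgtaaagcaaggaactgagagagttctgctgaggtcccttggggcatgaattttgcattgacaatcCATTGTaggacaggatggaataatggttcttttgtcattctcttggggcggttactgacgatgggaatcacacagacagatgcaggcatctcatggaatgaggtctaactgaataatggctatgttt
Cpsf4l: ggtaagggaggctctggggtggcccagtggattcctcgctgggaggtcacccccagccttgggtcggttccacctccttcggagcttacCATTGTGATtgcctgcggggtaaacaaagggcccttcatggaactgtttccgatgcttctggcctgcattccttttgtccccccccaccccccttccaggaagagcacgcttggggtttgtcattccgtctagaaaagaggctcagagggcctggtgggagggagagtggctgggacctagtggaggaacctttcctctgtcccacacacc
Jag1: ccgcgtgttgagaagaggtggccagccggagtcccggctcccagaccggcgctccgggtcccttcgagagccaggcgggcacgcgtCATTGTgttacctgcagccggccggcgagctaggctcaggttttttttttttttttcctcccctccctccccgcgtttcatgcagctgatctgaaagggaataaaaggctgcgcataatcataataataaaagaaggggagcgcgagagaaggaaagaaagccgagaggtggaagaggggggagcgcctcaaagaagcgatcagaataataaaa
Adprhl2: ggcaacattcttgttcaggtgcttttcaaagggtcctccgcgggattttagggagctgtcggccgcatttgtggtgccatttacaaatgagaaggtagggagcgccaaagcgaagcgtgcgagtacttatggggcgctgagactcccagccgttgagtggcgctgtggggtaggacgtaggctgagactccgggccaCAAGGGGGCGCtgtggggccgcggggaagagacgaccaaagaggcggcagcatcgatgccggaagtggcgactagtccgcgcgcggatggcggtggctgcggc
Rapgef1: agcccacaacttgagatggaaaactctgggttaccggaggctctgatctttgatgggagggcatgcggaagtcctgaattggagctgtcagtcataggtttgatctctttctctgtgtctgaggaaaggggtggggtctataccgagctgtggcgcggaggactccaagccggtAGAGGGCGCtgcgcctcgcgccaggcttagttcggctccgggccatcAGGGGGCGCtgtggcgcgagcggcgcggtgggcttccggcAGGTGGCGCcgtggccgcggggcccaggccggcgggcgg
Rab2b: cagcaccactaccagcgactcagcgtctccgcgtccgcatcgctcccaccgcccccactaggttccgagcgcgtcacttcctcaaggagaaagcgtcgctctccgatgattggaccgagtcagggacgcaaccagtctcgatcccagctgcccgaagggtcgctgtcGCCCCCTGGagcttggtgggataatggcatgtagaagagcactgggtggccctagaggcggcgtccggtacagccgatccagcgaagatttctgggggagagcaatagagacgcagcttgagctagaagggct
Prickle1: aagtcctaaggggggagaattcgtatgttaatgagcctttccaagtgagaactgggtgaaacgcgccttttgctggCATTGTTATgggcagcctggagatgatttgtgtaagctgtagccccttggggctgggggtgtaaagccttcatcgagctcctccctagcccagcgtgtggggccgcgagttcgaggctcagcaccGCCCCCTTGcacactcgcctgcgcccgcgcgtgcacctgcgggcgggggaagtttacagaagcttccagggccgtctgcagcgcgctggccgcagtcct
The window of 1700019D03Rik lies on the minus strand at chr1:52953565-52953864, and its SOX2 region had deposited folds of 33.5 and 42.8 in replicates 1 and 2. That of Cpsf4l lies on the minus strand at chr11:113709968-113710267, with SOX2 folds of 24.1 and 20.8. Jag1, which encodes a Notch ligand, starts on the minus strand in chr2:137116471-137116770, with SOX2 folds of 21.0 and 22.5. The Adprhl2 window, on the minus strand at chr4:126321654-126321953, had CTCF folds of 34.9 and 32.0. The Rapgef1 window, on the plus strand at chr2:29619470-29619769, had CTCF folds of 26.6 and 25.3 and held 3 matches to AGNNGGCGC. Rab2b, a small GTPase gene, has its window on the minus strand at chr14:52279346-52279645, with CTCF folds of 26.0 and 25.1. At Prickle1, a planar cell polarity gene with its window on the minus strand at chr15:93519471-93519770, the SOX2 folds were 34.8 and 22.4 and the CTCF folds 16.0 and 11.9.

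Over all 21263 RefSeq promoter windows of 17492 protein-coding genes, 11% held CATTGT and 23.6% held CNAGNNGGC. Of the 4606 windows with a SOX2 region and no CTCF region, 10.2% held CATTGT and 27.3% CNAGNNGGC, and of the 1964 with a CTCF region and no SOX2 region 3.87% and 37.4%. Of the 1780 windows that also held the SOX2 summit, without CTCF, 15.4% held CATTGT and 27.1% CNAGNNGGC. CATTGT was thus less frequent than over all windows in the wider SOX2 set and more frequent in the summit set. Of the 870 windows with a CTCF summit and no SOX2 region, 5.06% held CATTGT and 44.5% CNAGNNGGC. The more restrictive AGNNGGCGC was in 9.18% of all windows, 10.7% of the SOX2 summit set and 34.8% of the CTCF summit set. CATTGTNAT was rare, in 0.658% of all windows, 0.499% of the wider SOX2 set, 1.01% of the SOX2 summit set and 0.230% of the CTCF summit set. Base composition also differed, with a median G+C content of 56.3% over all windows, 60.0% in the SOX2 summit set and 63.0% in the CTCF summit set. Over these sets the shares of CNAGNNGGC and AGNNGGCGC rose in the same order, while those of CATTGT and CATTGTNAT did not. That order did not extend to the 1962 windows with regions of both factors. Their median G+C content was the highest, 65.0%, while 34.0% held CNAGNNGGC and 23.0% AGNNGGCGC, below the CTCF summit set. The part of base composition in the shares was not tested.

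The number of sites did not separate the factors. The SOX2 lists held 90266 and 63504 peaks in replicates 1 and 2, a mean of 76885 ± 18924 (SD, n = 2), and the CTCF lists held 68328 and 67995, a mean of 68162 ± 235 (SD, n = 2). SOX2 replicate 1 was above both CTCF lists and SOX2 replicate 2 below both. Of the SOX2 replicate 1 peaks 58.8% overlapped a replicate 2 peak, against 87.6% the other way, while for CTCF the shares were 86.8% and 86.9%. The ratio of SOX2 to CTCF regions was 0.891, while the mean number of peaks per list was higher for SOX2. A two-sided exact permutation test of the peak numbers of the 4 lists gave p = 1. With 2 lists against 2 that test cannot give a p under 0.333, so no comparison between the factors below could pass 0.05, and each is described by whether the lists overlap. The background coverage estimated from the lists, a stand-in for depth, was 2.48 and 1.61 reads per 100 bp for SOX2 and 3.36 and 3.71 for CTCF, so the factors also differ in depth, which cannot be told apart from the factor.

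SOX2 regions had a longer tail of wide regions than CTCF regions. Their median width was 658 bp against 608 bp, and the 90th percentile was 1395 bp against 1090 bp. Regions wider than 2 kb numbered 1513 for SOX2, 2.93% of its regions, and 547 for CTCF, 0.943%. The order was the opposite in single lists, where SOX2 peaks had medians of 435 and 408 bp, below both CTCF medians of 461 and 477 bp (exact permutation test, p = 0.333). Of single peaks, 11.7% and 7.67% exceeded 1 kb in the SOX2 lists and 6.72% and 8.20% in the CTCF lists, so the lists overlapped in this share. All SOX2 regions together covered 41.3 Mb and all CTCF regions 39.5 Mb.

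The widest SOX2 region lay at Rhof (7693 bp) and overlapped a CTCF region. Also among the widest were those at Tgif1, which encodes a homeobox repressor of TGF-beta signalling (5998 bp), in Cdh1, the E-cadherin gene that holds stem cell colonies together (5714 bp), and at the unconventional myosin gene Myo10 (5462 bp). The widest CTCF regions near genes lay beside Cnot10 of the CCR4-NOT deadenylase (5273 bp), near Rack1 (4031 bp), at the transcriptional repressor gene Bcl6 (3986 bp) and in the matrix metalloproteinase gene Mmp9 (3952 bp). One interval was among the widest for both factors, chr17:39843022-39848808 for SOX2 and chr17:39843016-39848815 for CTCF, 102 kb from the nearest protein-coding gene, Esp38. Its folds were low for its width, 2.47 and 3.17 for SOX2 and 1.70 and 1.52 for CTCF.

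Spacing differed in shape rather than in a single value. The median gap from 1 region to the next was 16.8 kb for SOX2 and 14.3 kb for CTCF. SOX2 regions were more often close together, with 17.7% within 1 kb of another against 13.2% for CTCF. Within 5 kb the shares of regions were 43.1% and 43.1%, and at a deposited fold of at least 5 they were 20.8% for SOX2 and 30.3% for CTCF. That cutoff left 20724 SOX2 and 33142 CTCF regions, and the part of these numbers in the shares was not tested. In single lists, with no limit on the fold, 60.6% and 52.2% of SOX2 peaks had another within 5 kb, against 49.5% and 49.4% of CTCF peaks, and the lists did not overlap. Isolated regions, over 100 kb from any other of the same factor, were 1899 for SOX2 (3.68%) and 1875 for CTCF (3.23%). In single lists the shares of isolated peaks were 1.63% and 2.69% for SOX2 and 2.59% and 2.65% for CTCF, and the lists overlapped.

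**Figure D1:**
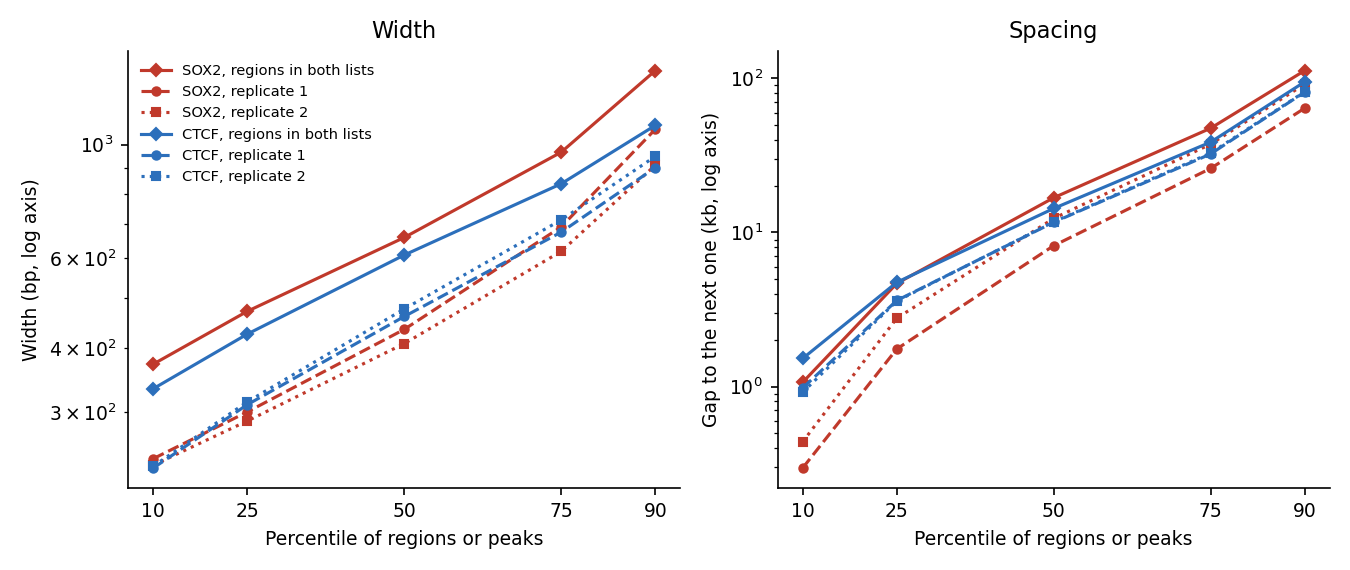
Width (left, bp) and gap to the next one (right, kb), both on log axes, at the 10th, 25th, 50th, 75th and 90th percentiles, for the regions in both lists (solid lines) and the 2 single lists of each factor (dashed and dotted lines). SOX2 regions reach 1395 bp at the 90th percentile and CTCF regions 1090 bp, while single SOX2 peaks are narrower at the median (435 and 408 bp) than single CTCF peaks (461 and 477 bp).

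Regions were also joined into runs with gaps of at most 10 kb. SOX2 had 1180 runs of 5 or more regions and CTCF 1499, and the longest runs held 24 SOX2 and 20 CTCF regions. The SOX2 run with most regions, at chr13:23488694-23596103, covered replication-dependent histone genes such as H3c8 and H4c8 and also held 13 CTCF regions. The next, at chr13:44668951-44756065, held 23 SOX2 and 3 CTCF regions beside and within Jarid2, which encodes a subunit of the Polycomb complex PRC2. The third, at chr15:79868839-79960014, held 20 SOX2 and 9 CTCF regions around the cytidine deaminase gene Apobec3 and Cbx7, the main chromobox gene of Polycomb in stem cells. The CTCF runs with most regions lay at Sptbn4 and Blvrb (chr7:27378265-27455507, 20 CTCF and 5 SOX2 regions), at Madcam1 to Bsg (chr10:79647266-79713281, 20 and 5) and at Tacc1 (chr8:25196498-25277784, 19 and 8). The widest gap between SOX2 regions spanned 11556 kb of the X chromosome, with 50 protein-coding genes and a single CTCF region. No gap in SOX2 replicate 1 was wider than 5013769 bp, so that list had peaks within this stretch. In replicate 2 the widest gap was 11555901 bp. The widest gap between CTCF regions spanned 80014 kb of the Y chromosome, with no SOX2 region. In CTCF replicate 2 the widest gap was 54740423 bp, so that list had peaks there.

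Positions relative to protein-coding genes differed between the factors. SOX2 regions were more frequent both at gene starts and far from genes, and CTCF regions were more frequent inside genes. At gene starts, meaning within 1 kb of a start of transcription, lay 17.7% of SOX2 regions (95% Wilson interval 17.4 to 18%) and 12.4% of CTCF regions (12.1 to 12.6%). The single lists gave 17.8% and 17.6% for SOX2 and 13.3% and 13.9% for CTCF. Inside genes lay 37.8% of SOX2 and 44.5% of CTCF regions, with 38.4% and 38.2% in the SOX2 lists and 44.3% and 44.0% in the CTCF lists. Over 50 kb from any protein-coding gene lay 16.1% of SOX2 and 11.9% of CTCF regions, with 15.2% and 15.4% in the SOX2 lists and 11.5% and 11.6% in the CTCF lists. In all 3 classes the lists of the factors did not overlap and differed by more than the spread between replicates (two-sided exact permutation test, p = 0.333 in each, the smallest it can give). Each region was counted in 1 class only, with starts taken first, so the inside class leaves out regions at gene starts. The class shares are therefore not independent of each other. Protein-coding gene bodies, starts included, cover 38.2% of the 2703 Mb between the first and last gene of each chromosome. That value is not matched to the inside shares, which leave out the starts. Wilson intervals cover counting error only.

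For 4395 of 21887 genes the start of transcription was not in the table used, among them all of chromosome 18, and both boundaries of such a gene were counted as starts. With either boundary counted for every gene, the shares were 18.1% for SOX2 and 14.3% for CTCF. Among genes with a known start, 13.9% of SOX2 regions lay at a start and 2.22% only at the other end, against 9.25% and 3.08% of CTCF regions. Regions that covered the start itself were 9.30% of the SOX2 and 4.71% of the CTCF regions. In single lists those shares were 6.93% and 6.19% for SOX2 and 4.02% and 4.20% for CTCF. Of 17492 genes with a known start, 6635 (37.9%) had a SOX2 region there and 5079 (29.0%) a CTCF region. Both were present at 2925 starts, which is 44.1% of the SOX2 and 57.6% of the CTCF genes.

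**Figure D2:**
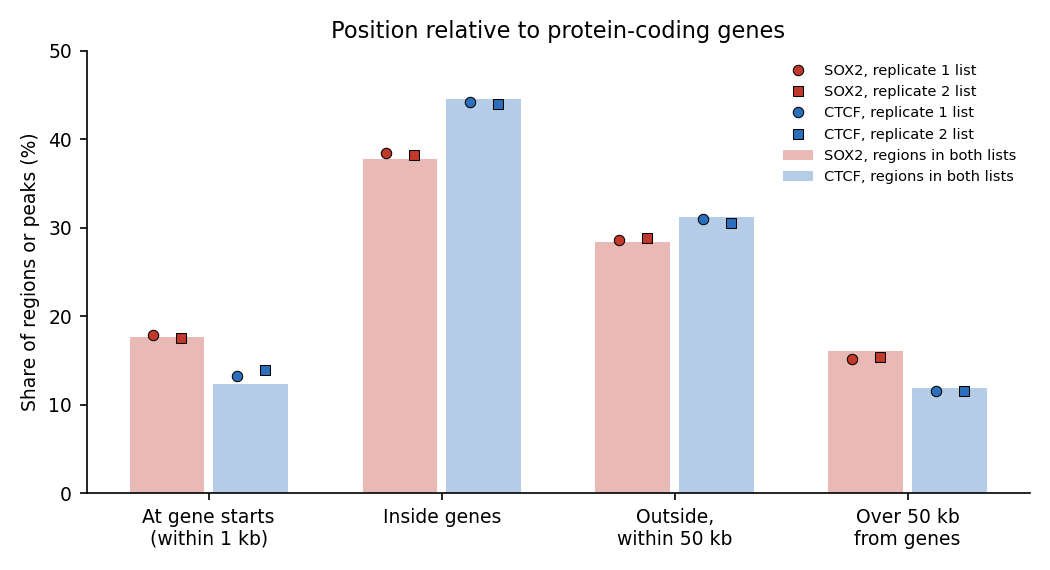
Share (%) of regions or peaks at gene starts (within 1 kb), inside genes, outside genes within 50 kb and over 50 kb from protein-coding genes. Each region or peak is in 1 class, with starts taken first. Bars are the regions in both lists and points the single lists. Both SOX2 points lie above both CTCF points at gene starts and over 50 kb from genes, and below them inside genes.

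The share at gene starts followed the strength of a region, and in different ways for the factors. Peaks of each list were split into 5 equal classes by their own deposited fold, from 1 (weakest) to 5 (strongest). In class 1, 26.9% and 29.2% of SOX2 peaks lay at gene starts, and the share was lower in each step, down to 10.6% and 9.35% in class 5. CTCF peaks started at 26.8% and 25.7%, went down to 8.03% and 8.55% in class 4 and were at 12.3% and 13.1% in class 5. The order of the factors was therefore turned in class 5, where both CTCF lists lay above both SOX2 lists. Far from genes the SOX2 share was higher in each step, from 9.29% and 9.07% to 20.9% and 20.4%. The CTCF share was highest in class 3, at 14.8% and 14.9%, and was 9.08% and 8.92% in class 5. At a deposited fold of at least 5, the gap between the factors at gene starts shrank from 5.33 to 1.61 percentage points and that over 50 kb from genes grew from 4.25 to 8.09.

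**Figure D3:**
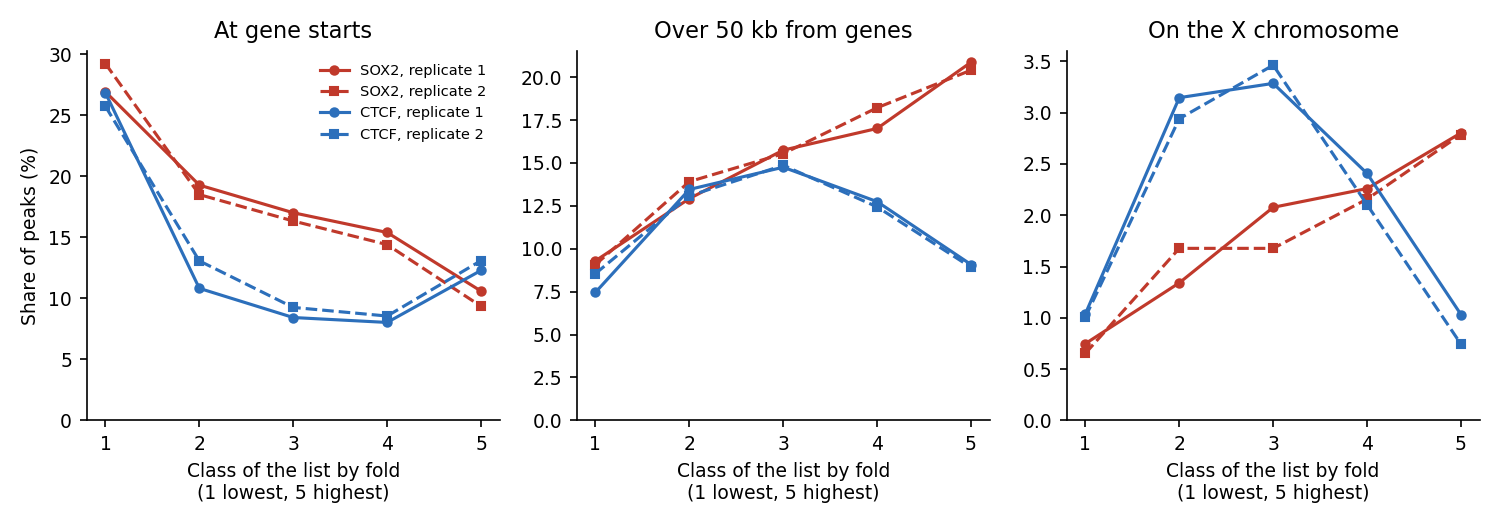
Share (%) of peaks at gene starts (left), over 50 kb from protein-coding genes (middle) and on the X chromosome (right) in 5 equal classes of each single list by deposited fold, from lowest (1) to highest (5). The SOX2 lines fall at gene starts, to 10.6% and 9.35%, and rise far from genes, to 20.9% and 20.4%, while the CTCF lines bend.

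A region of the other factor was overlapped by 10497 SOX2 regions (20.3%) and 10594 CTCF regions (18.3%). At gene starts lay 31.9% of those SOX2 and 31.6% of those CTCF regions, shares that overlap by itself makes nearly equal. Among regions without the other factor the shares were 14.1% for SOX2 and 8.05% for CTCF, and over 50 kb from genes they were 18.2% and 12.7%. By class, 36.6% of SOX2 and 46.8% of CTCF regions at gene starts overlapped the other factor, against 16.4% and 12.6% inside genes.

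Chromosomes took similar shares of both factors, with some exceptions. Both SOX2 lists were above both CTCF lists on 8 chromosomes and below them on 10, and the lists overlapped on 3. The largest excess of SOX2 was on chromosome 13, with 4.92% of SOX2 and 3.88% of CTCF regions (4.82% and 4.90% in the SOX2 lists, 3.91% and 3.88% in the CTCF lists). By the ratio of shares, 1.27 on chromosome 13, chromosome 18 came next at 1.17, with 3.26% against 2.80%. The largest autosomal excess of CTCF was on chromosome 5, with 6.47% against 7.44%, followed by chromosome 7 with 5.85% against 6.61%. Chromosome 11 was densest for both, at 31.2 SOX2 and 38.0 CTCF regions per Mb. On chromosome 8 the SOX2 lists differed from each other, at 6.15% and 5.26%.

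The X chromosome was sparse for both factors, with 5.84 SOX2 and 7.58 CTCF regions per Mb, and the Y chromosome held 5 and 23 regions. The X held 1.93% of SOX2 and 2.23% of CTCF regions, with 1.85% and 1.79% in the SOX2 lists and 2.18% and 2.05% in the CTCF lists (exact permutation test, p = 0.333). Strength changed this order. The SOX2 share on the X went from 0.748% and 0.654% in class 1 to 2.80% and 2.79% in class 5. The CTCF share was highest in class 3, 3.29% and 3.46%, and was 1.03% and 0.743% in class 5. At a deposited fold of at least 5 the X held 2.68% of SOX2 and 1.97% of CTCF regions.

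**Figure D4:**
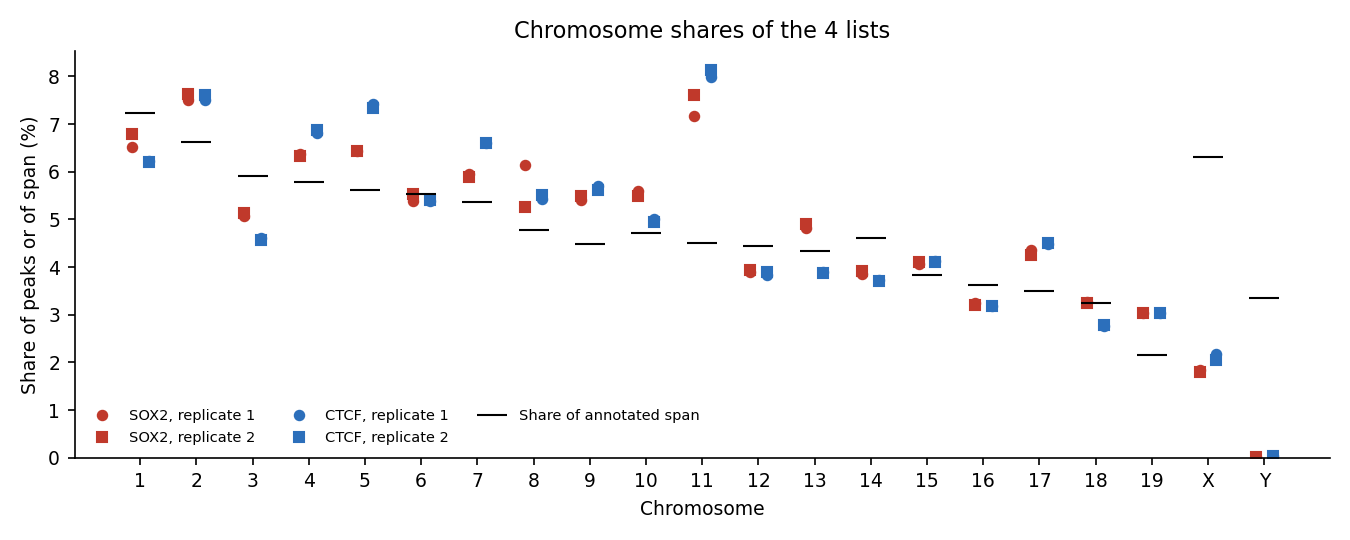
Share (%) of the peaks of each of the 4 lists on each chromosome; dashes mark the chromosome's share of the span between first and last genes. The SOX2 lists lie above the CTCF lists on chromosome 13 (4.82% and 4.90% against 3.91% and 3.88%), and all lists lie below the span share on the X and Y.

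Most genes had both factors nearby. A SOX2 region lay in or within 50 kb of 18766 of 21887 protein-coding genes (85.7%) and a CTCF region of 19195 (87.7%), with a median of 4 SOX2 and 6 CTCF regions per gene. Both were near 17951 genes, SOX2 alone near 815, CTCF alone near 1244 and neither near 1877. The counts of both factors were correlated over genes (Spearman correlation 0.710 over 21887 genes, which share neighbours and regions, and 0.716 per 100 kb). Of the 100 genes with most regions of each factor, 42 were shared. Overlapping genes of a locus count the same regions, as in the clustered protocadherins, so the 42 are not separate loci. How many of them lie in that cluster was not counted. Longer genes have larger windows: the median length was 258 kb for the SOX2 and 170 kb for the CTCF top 100, against 17.2 kb over all genes.

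The genes with most SOX2 regions were mainly those of the clustered protocadherins, cell adhesion molecules of neurons, where Gm37013 spans the locus with 69 SOX2 and 92 CTCF regions. Outside that locus Etl4 led with 42 SOX2 regions (65 and 53 peaks) and 28 CTCF regions (33 and 29 peaks). The CTCF ranking after the protocadherins was led by Fry, which encodes a microtubule-binding protein, with 53 CTCF and 10 SOX2 regions. Camta1, a calmodulin-binding transcription activator gene, and Gse1 followed with 52 CTCF regions each, against 21 and 32 SOX2 regions. Mtus2 had 46 CTCF and 10 SOX2 regions, the axonemal dynein gene Dnah8 42 and 26, and the cadherin gene Cdh13 38 and 27.

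The largest excesses of SOX2 regions were near genes of several kinds. Both SOX2 lists had more peaks than both CTCF lists near 22.3% of all genes, and the reverse held near 27.4%. The genes named here were picked as the extremes. Msi2, which encodes an RNA-binding Musashi protein of stem cells, had 39 SOX2 and 16 CTCF regions, from 73 and 53 SOX2 peaks and 23 and 23 CTCF peaks. The homeobox gene Zfhx3 had 31 and 9 regions, from 67 and 37 against 15 and 12 peaks. Prdm1, which encodes the germ cell and plasma cell regulator BLIMP1, had 24 and 3 regions, from 30 and 29 against 4 and 4 peaks. The ephrin receptor gene Epha4 had 24 and 4 regions, from 34 and 27 against 5 and 4 peaks. At all 4 genes the lists of the factors did not overlap. Because a region needs a peak in each list, this follows largely from the choice by region counts and is no separate support. The others of the 10 were Clybl (33 and 12), Jarid2 (33 and 13), the junctional scaffold gene Magi1 (34 and 15), the utrophin gene Utrn (29 and 10), Immp2l (25 and 7) and the laminin gene Lamc1 (21 and 3).

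The opposite extremes were Fry (58 and 55 CTCF peaks against 20 and 11 SOX2 peaks), Mtus2 (52 and 50 against 22 and 14) and Camta1 (54 and 58 against 36 and 29). Caln1, which encodes a neuronal calcium-binding protein, had 32 CTCF and 3 SOX2 regions, from 37 and 37 CTCF peaks and 3 and 3 SOX2 peaks. The mitochondrial RNA polymerase gene Polrmt, the membrane glycoprotein gene Bsg and the pacemaker channel gene Hcn2 share a dense CTCF stretch of chromosome 10 and had 28, 29 and 30 CTCF regions against 3, 5 and 6 SOX2 regions. Per 100 kb of gene and flanks, the granzyme gene Gzmm of that stretch was the densest for CTCF, with 27.3 CTCF and 5.65 SOX2 regions. Outside it, Psors1c2 had 26.6 CTCF and 15.8 SOX2 regions per 100 kb. The densest for SOX2 was the histone gene H3c8, with 21.9 SOX2 and 12.9 CTCF regions per 100 kb, and outside the histone locus Enc1, with 18.8 and 5.36, and Hoxc9, with 18.6 and 5.59.

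Some loci were used by 1 factor only in the regions. Zfp608, a zinc finger gene, had 12 SOX2 regions and no CTCF region, from 19 and 15 SOX2 peaks against 1 and 0 CTCF peaks. Tafa1, which encodes a chemokine-like secreted protein, had 11 and 0 regions, from 13 and 11 against 2 and 1 peaks. Kitl, which encodes the ligand of the KIT receptor of germ and blood stem cells, had 7 and 0 regions, from 10 and 7 against 1 and 0 peaks. Zfp507 had 14 CTCF regions and no SOX2 region, from 16 and 15 CTCF peaks, and the SOX2 lists differed there, with 9 and 1 peaks. The apolipoprotein gene Apol9b had 12 CTCF regions and no SOX2 region, from 12 and 12 against 3 and 0 peaks. Traf2, which encodes an adaptor of TNF receptors, had 11 and 0, from 13 and 11 against 3 and 1 peaks. At each of these genes at least 1 list of the other factor held a peak, so absence refers to regions present in both lists.

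Gene groups differed in which factor was denser around them. Over the merged windows of all protein-coding genes with 50 kb on each side there were 25.7 SOX2 and 30.3 CTCF regions per Mb, a ratio of 0.848, and SOX2 regions outnumbered CTCF regions near 5513 genes, the reverse near 12400. In single lists these windows held 45.4 and 31.8 SOX2 and 35.9 and 35.6 CTCF peaks per Mb, so the SOX2 lists lay on both sides of the CTCF lists. Around 32 pluripotency genes the densities were 86.8 SOX2 and 62.2 CTCF regions per Mb, with 149 and 111 SOX2 peaks and 79.3 and 78.1 CTCF peaks per Mb in the lists, and 23 of the 32 had more SOX2 regions. Of these genes Klf5 had 15 SOX2 and 4 CTCF regions, Etv5 15 and 5, and Tfcp2l1 10 and 2, while Pou5f1, the gene of OCT4, had 15 and 23. Around 21 genes of FGF, Nodal, LIF and BMP signalling there were 78.9 and 56.3 regions per Mb, from 130 and 98.4 SOX2 and 73.1 and 70.8 CTCF peaks. Among them the feedback inhibitors Spry4 and Socs3 had 16 and 15 SOX2 regions against 6 and 6 CTCF regions, and the ERK phosphatase gene Dusp6 6 against 0, while Lefty1, an inhibitor of Nodal, had 8 against 14.

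Around 20 neural regulators the densities were 58.5 SOX2 and 43.7 CTCF regions per Mb, from 113 and 80.1 SOX2 and 54.2 and 54.2 CTCF peaks. Zic2 had 18 SOX2 and 2 CTCF regions and the eye regulator Pax6 10 and 2, and the intermediate filament gene Nes 7 and 15. Around 18 mesoderm and endoderm regulators the densities were 41.1 and 49.5 regions per Mb, in the order of the whole genome, from 69.6 and 55.1 SOX2 and 59.3 and 57.5 CTCF peaks, and the lists overlapped. The 39 Hox genes, which pattern the body axis, had 101 SOX2 and 57.2 CTCF regions per Mb, and the SOX2 lists stood far apart there, at 247 and 142 peaks per Mb against 78.5 and 83.0 for CTCF.

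CTCF was denser around other groups. The 81 ribosomal protein genes had 56.6 SOX2 and 83.2 CTCF regions per Mb, and 63 of them had more CTCF regions. However, the SOX2 peaks, at 113 and 70.8 per Mb, lay on both sides of the CTCF peaks at 99.4 and 98.2, as they did over all genes. Around 109 keratin and keratin-associated genes, which are products of epithelia and hair, there were 17.1 SOX2 and 33.0 CTCF regions per Mb. Their lists did not overlap, with 29.8 and 19.8 SOX2 and 36.6 and 38.6 CTCF peaks per Mb, and 76 of the 109 had more CTCF regions. Krt7 had 1 SOX2 and 8 CTCF regions, while Krt8 and Krt18, the keratins of simple epithelia, had 7 and 8, and 8 and 7. The clustered protocadherins had 71.0 and 94.7 regions per Mb, with SOX2 lists at 116 and 75.2 and CTCF lists at 105 and 103 peaks per Mb.

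The remaining groups had ratios of SOX2 to CTCF regions per Mb between 0.886 and 1.09, against 0.848 over all genes. Both SOX2 lists lay above both CTCF lists around imprinted genes, at 56.4 and 41.4 against 34.9 and 36.2 peaks per Mb. The same held around olfactory and vomeronasal receptor genes, at 15.5 and 10.5 against 10.3 and 10.1. In the other groups of this paragraph the SOX2 lists lay on both sides of the CTCF lists. Polycomb and trithorax genes had 73.3 SOX2 and 75.9 CTCF regions per Mb, with Jarid2 at 33 and 13 and Kmt2a, a histone H3K4 methyltransferase gene, at 5 and 12. The 20 genes of cohesin, condensin and CTCF itself had 33.7 and 37.2 regions per Mb, and the 18 imprinted genes 32.1 and 29.4. Olfactory and vomeronasal receptor genes, 1459 in all, had 8.90 and 8.69 regions per Mb, and 41.7% had a SOX2 and 35.5% a CTCF region within 50 kb. The 24 genes of synaptic adhesion and axon guidance, with a median length of 1176 kb, had 7.53 and 8.50 regions per Mb. Within that group Magi2 had 22 SOX2 and 9 CTCF regions and Csmd1 11 and 27. Genes of a cluster share windows and regions, so the counts of a group are not independent.

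**Figure D5:**
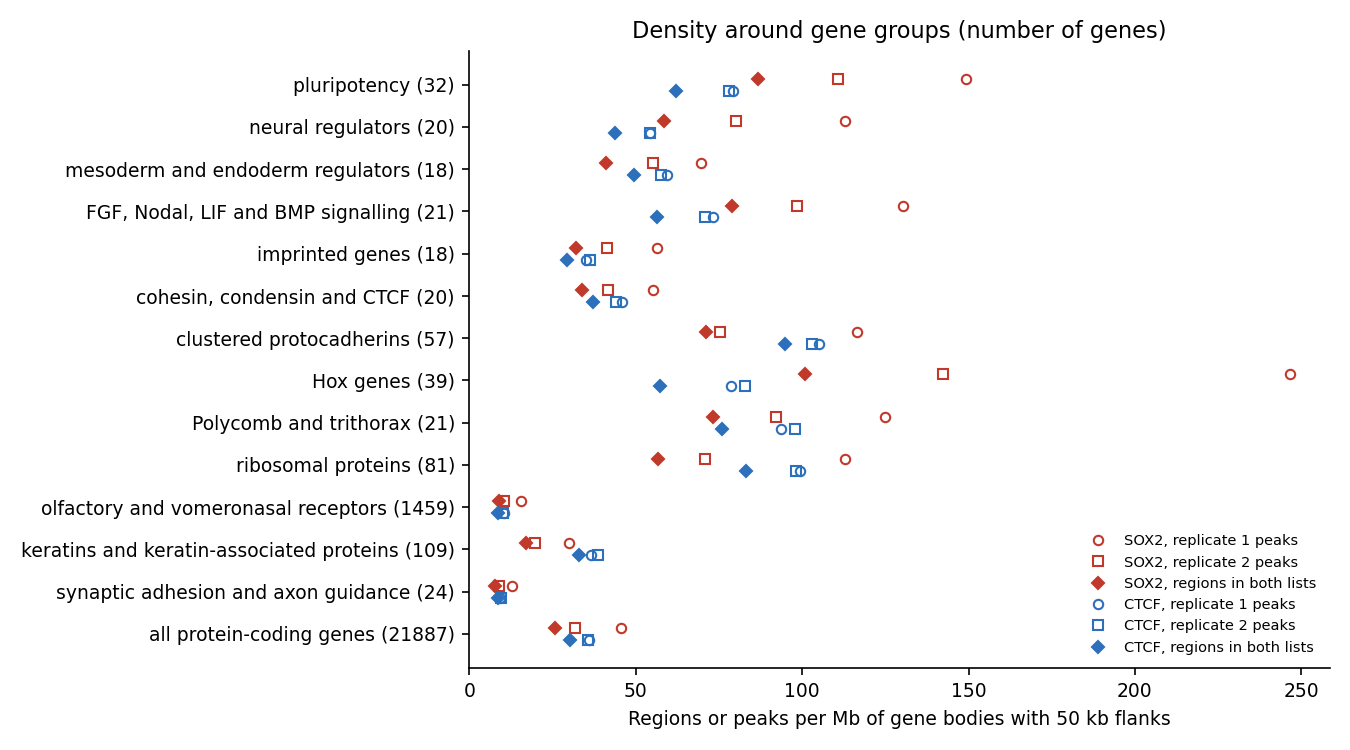
Regions in both lists (diamonds) and peaks of single lists (circles, replicate 1; squares, replicate 2) per Mb of gene bodies with 50 kb flanks, by gene group, with the number of genes in brackets. The SOX2 lists lie above both CTCF lists around pluripotency genes (149 and 111 against 79.3 and 78.1 per Mb) and below them around keratins (29.8 and 19.8 against 36.6 and 38.6).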

How the data were processed

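Peak lists of ChIP-seq libraries were used. The submitters' processing notes name the build mm10 and, as tools, MACS2 2.1.1.20160309, SAMtools, BWA 0.7.17 and CASAVA 1.4. Options, filters and control libraries are not given in the sources used. Each library has its own list, so the authors did not pool replicates in them. The deposited fold is a ratio over local background at the summit, beside a deposited score and deposited −log10 p and −log10 q values. Classes and percentiles of the fold were made within each list. The cutoffs of fold and of −log10 q, in contrast, were the same for the lists of both factors, although the factors differ in depth. The part of depth in the contrasts at these cutoffs was not tested. The lowest −log10 q was 1.31 to 1.34.

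Peaks sharing at least 1 bp were merged. Genes and promoters came from RefSeq tables on GRCm38.p6, the assembly of mm10. Strength is the mean percentile of the fold over both lists. Factors were compared by two-sided exact permutation over the 4 lists. Coverage per 100 bp was solved from the fold and −log10 p under a Poisson model. Overlaps and distances were tested on simulated data against bedtools 2.31.1; Python 3.11.15 was used.

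The members, gene lists and alternatives were chosen with earlier results of these data known. Names were taken from the 10 genes per factor with most regions, with most per 100 kb (at least 5 regions) and with the largest excess. They were also taken from the widest regions, the strongest promoter regions with a motif, the 3 runs with most regions, the widest gap, and list genes with the largest counts. Genes with regions of 1 factor only, and list genes named as contrasts, were chosen on sight of their values. The alternatives tried were a fold or −log10 q of at least 5, an overlap of 50%, regions of either list, lists of equal length, leaving out each list, autosomes, summits, other windows and gene sets, and pairing by replicate number. Counting either gene boundary was added after the data were seen.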

Additional observations from a re-analysis of the deposited data

How the results depend on the processing

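Of 109 alternative values for 9 comparisons, 87 kept the direction and 22 reversed it; the cause was not tested. The difference at gene starts stayed between 1.61 and 5.52 percentage points, that inside genes between -7.07 and -5.01, and that over 50 kb from genes between 1.55 (all genes of the table, noncoding included) and 8.09. With regions of either library, the SOX2 to CTCF ratio was 1.27, the width difference -49 bp, the gap difference -2668 bp and the ratio of genes with a region 1.01. Leaving out 1 list, which sets a single list against joined regions, gave ratios of 0.756 to 1.56, widths of -200 to 197 bp, gaps of -6108 to 5155 bp, shares within 5 kb of -6.35 to 17.5 points and gene ratios of 0.968 to 1.03; both SOX2 lists, taken alone, reversed number, width and gap. The share within 5 kb, 0.0455 points with all regions, was -4.66 at a −log10 q of at least 5, -9.58 at a fold of at least 5, -0.474 at 50% overlap, -2.01 with lists of equal length and -2.45 with a gap of 10 kb, and it was 9.48 with regions of either library and 6.96 under the replicate block. The X chromosome share reversed at a fold of at least 5, to 0.708 points. Libraries of the factors share only a replicate number, with no correlation of their deviations over genes (r = -0.000546 over 21887 genes). Comparing lists within numbers (the replicate block) gave a ratio of 1.11, a width of -47.5 bp and a gap of -1406 bp, against the direction of the joined regions, and 4.10 points at gene starts in the same direction; its exact permutation p cannot go below 0.5. Background coverage was lowest in SOX2 replicate 2, at 1.61 reads per 100 bp, and its part in the number of peaks called was not tested.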
